A study of Mus musculus with 6 samples.

Results

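Heat shock and unfolded protein response genes were described in mouse lung epithelial cells sorted with and without a reporter of Piwil4, the gene of the Piwi protein MIWI2. The genes were taken by symbol from a list of 35, and all 35 were among the 48577 genes counted. They form 2 classes: 15 heat shock genes (11 cytosolic and nuclear chaperones or cofactors, 3 mitochondrial chaperones and the regulator Hsf1) and 20 endoplasmic reticulum (ER) stress genes. Cells of C57BL/6 mice carrying the Miwi2tdTomato allele were freed from the lung by enzymes and gated as CD45-, EpCAM+ (no leukocyte marker, with the epithelial marker), then split into tdTomato-negative and tdTomato-positive cells. Each of 3 mice gave 1 library of each fraction. Every animal carried the reporter allele, so the comparison is between cells, not between genotypes. The age of the animals and any gate for cilia are not given in the sources used here, although the labels describe both fractions as multiciliated.

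Cytosolic chaperones keep proteins folded during heat or other stress, and many are induced by the transcription factor HSF1, which binds inverted repeats of a GAA unit called heat shock elements. The unfolded protein response is the corresponding pathway of the ER: the sensors ATF6, IRE1 (Ern1) and PERK (Eif2ak3) detect unfolded protein and raise ER chaperones through ATF6, XBP1 and ATF4. Enzymatic digestion of tissue is known to induce heat shock and immediate early genes, and secretory lung cells carry a large load of protein folding in the ER.

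Promoter sequences are shown first because the classes are known for different regulatory elements. Windows of 250 bases before each annotated start came from RefSeq on GRCm38.p6, and 10 of 15 heat shock members and 18 of 20 ER members had at least 1 window. The ER stress element (CCAAT, any 9 bases, then CCACG; both strands) was found in 7 of the 18 ER members, in 0 of the 10 heat shock members and in 0.113% of 32851 windows of all genes. A heat shock element of 3 units (GAA, TTC and GAA with any 2 bases between neighbours; both strands) was found in 2 heat shock members, Hspe1 and Hspd1, in 0 ER members and in 0.466% of all windows. These 2 genes are transcribed in opposite directions on chromosome 1 and share the stretch that holds it. A facing pair of units (GAANNTTC, the same on both strands and contained in the 3-unit form) was found in 6 heat shock members, 0 ER members and 6.69% of all windows. The pair back to back (TTCNNGAA, also the same on both strands and contained in the 3-unit form) was found in 3 heat shock members, 1 ER member and 7.17% of all windows. A match describes letters and is no evidence of binding.

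The windows printed 5′ to 3′ are those of Hspa1a, Hspa1b and Hspb1, whose blocked differences between the fractions were the largest of the heat shock class, and of Hspa5, the main ER chaperone. Capitals mark a facing pair of heat shock units or, in Hspa5, the ER stress element. On GRCm38.p6 the windows lie at chr17:34972157-34972406 (minus strand), chr17:34959239-34959488 (minus strand), chr5:135887669-135887918 (plus strand) and chr2:34771840-34772089 (plus strand).
Hspa1a: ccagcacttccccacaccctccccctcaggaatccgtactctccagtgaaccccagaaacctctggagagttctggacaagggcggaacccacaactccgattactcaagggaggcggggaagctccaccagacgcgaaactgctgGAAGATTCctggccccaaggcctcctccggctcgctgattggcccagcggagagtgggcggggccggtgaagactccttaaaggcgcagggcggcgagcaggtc
Hspa1b: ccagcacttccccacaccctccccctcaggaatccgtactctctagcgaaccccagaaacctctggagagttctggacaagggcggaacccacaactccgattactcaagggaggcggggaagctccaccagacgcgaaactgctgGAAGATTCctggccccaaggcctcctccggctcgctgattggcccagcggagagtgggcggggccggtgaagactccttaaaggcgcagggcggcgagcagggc
Hspb1: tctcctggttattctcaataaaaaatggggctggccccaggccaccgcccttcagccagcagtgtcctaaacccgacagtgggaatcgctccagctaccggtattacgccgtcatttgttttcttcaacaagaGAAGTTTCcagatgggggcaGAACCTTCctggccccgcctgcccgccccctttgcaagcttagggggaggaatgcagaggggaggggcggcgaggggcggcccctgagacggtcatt
Hspa5: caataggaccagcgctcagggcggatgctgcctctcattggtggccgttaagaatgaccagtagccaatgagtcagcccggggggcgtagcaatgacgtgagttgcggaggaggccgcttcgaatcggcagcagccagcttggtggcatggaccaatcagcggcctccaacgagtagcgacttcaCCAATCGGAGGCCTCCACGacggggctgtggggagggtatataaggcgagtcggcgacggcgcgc
The Hspa1a and Hspa1b windows were identical at 247 of 250 positions and held the same pair 104 to 97 bases before the start. Hspb1 held 2 facing pairs, 117 to 110 and 97 to 90 bases before its start. The element of Hspa5 lay 65 to 47 bases before its start.

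The ER stress elements of the 7 ER genes are shown on the strand of the motif, with the fixed letters in capitals, to let the shared ends and the differing middle be seen. Hsp90b1 held 2 copies on opposite strands, of which the one nearer the start is printed.
Hspa5: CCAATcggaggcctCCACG
Hsp90b1: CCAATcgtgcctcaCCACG
Calr: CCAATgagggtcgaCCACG
Canx: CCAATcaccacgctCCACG
Dnajc3: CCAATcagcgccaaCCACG
Creld2: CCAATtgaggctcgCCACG
Pdia6: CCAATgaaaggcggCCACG
The 3-unit heat shock element shared by Hspe1 and Hspd1 reads GAAccTTCcgGAA at chr1:55088064-55088076 (plus strand), 84 to 72 bases before the start of Hspe1, and a second match on the other strand overlaps it.

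Reads in genes numbered 5330584 to 6326395 per library, and levels are given in CPM, counts scaled to the TMM-adjusted library size, where 3 reads are worth 0.475 to 0.585 CPM. Amplified reads are not independent molecules, so that floor counts reads and not molecules. The p-values measure the spread among these libraries or, with a term for the mouse, the spread left after that term. The sort was checked with Piwil4, at 44.0, 29.96 and 45.6 CPM in negative and 101, 95.7 and 111 CPM in positive cells (edgeR adjusted p = 0.0120), and with tdTomato, at 0 reads in all negative and 37, 16 and 18 reads in positive libraries. All 10 multiciliated markers were detected in both fractions. Their sum was 3276 to 3764 CPM in negative and 3358 to 4269 CPM in positive libraries. In all 3 mice 5 of 10 were higher and 1 was lower, against 19.8% and 18.8% of all genes. The lower one, Dnah12, was the most abundant of the 10, with a mean of 1769 CPM. With a term for the mouse, edgeR called 3 of the 10 as higher (Foxj1, Tppp3 and Cfap126) and 0 as lower. Over all genes that test called 1.36% as higher and 1.79% as lower. Markers of other lung cell types were present, and the sums of alveolar type 2 and club cell markers moved with the sort. The sum of 10 alveolar type 2 markers was 6133 to 7479 CPM in negative and 553 to 1070.2 CPM in positive libraries, with 10 of 10 lower in all 3 mice. The sum of 10 club cell markers was 4836 to 8348 CPM in negative and 8555 to 22409.5 CPM in positive libraries, with 7 of 10 higher and 0 lower in all 3 mice. Scgb1a1, the most abundant of these 10 with a mean of 5736 CPM, weighed most in that sum. Its positive libraries had 12402, 13687 and 2240 CPM in mice 1, 2 and 3. The sum of 10 leukocyte markers was 23.6 to 119.7 CPM in negative and 25.1 to 43.4 CPM in positive libraries, that of 10 mesenchymal and endothelial markers 26.9 to 77.4 CPM in negative and 13.2 to 58.8 CPM in positive libraries, and Cldn5 was at 0 in all libraries. In such bulk samples fewer cells of a type and less RNA per cell cannot be told apart.

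Calls among the heat shock and ER stress genes were about as rare as among all genes. None passed the test without a term for the mouse, and 2 passed it with one. With 3 mice, a gene that was not called may still differ. Of the 35 genes 34 passed the filter on low counts, and the exception was Trib3, a pseudokinase induced by ATF4, with at most 2 reads in any library. In edgeR's quasi-likelihood test without a mouse term, 0 of the 34 were called at an adjusted p under 0.05, against 0.622% of all 13175 genes tested (0.0455% higher and 0.577% lower), and DESeq2 without a mouse term also called 0. At an unadjusted p under 0.05 there was 1 of 34 (2.94%), Hspb1, against 10.7% of all genes. The median log2 fold change, positive over negative, was 0.01 over the heat shock members and -0.01 over the ER members, beside 0.03 over all genes; with library size as the only scaling these medians were 0.24, 0.24 and 0.29. With the mouse as a replicate block 2 of the 34 were called, Hspb1 as higher and Hspa1a as lower, against 3.15% of all genes (1.36% higher and 1.79% lower). That share of members is near the background. At an unadjusted p under 0.05 the blocked model had 6 of 34 (17.6%), against 15.9% of all genes. These were 4 of 15 heat shock members (26.7%) and 2 of 19 ER members (10.5%).

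**Figure D1:**
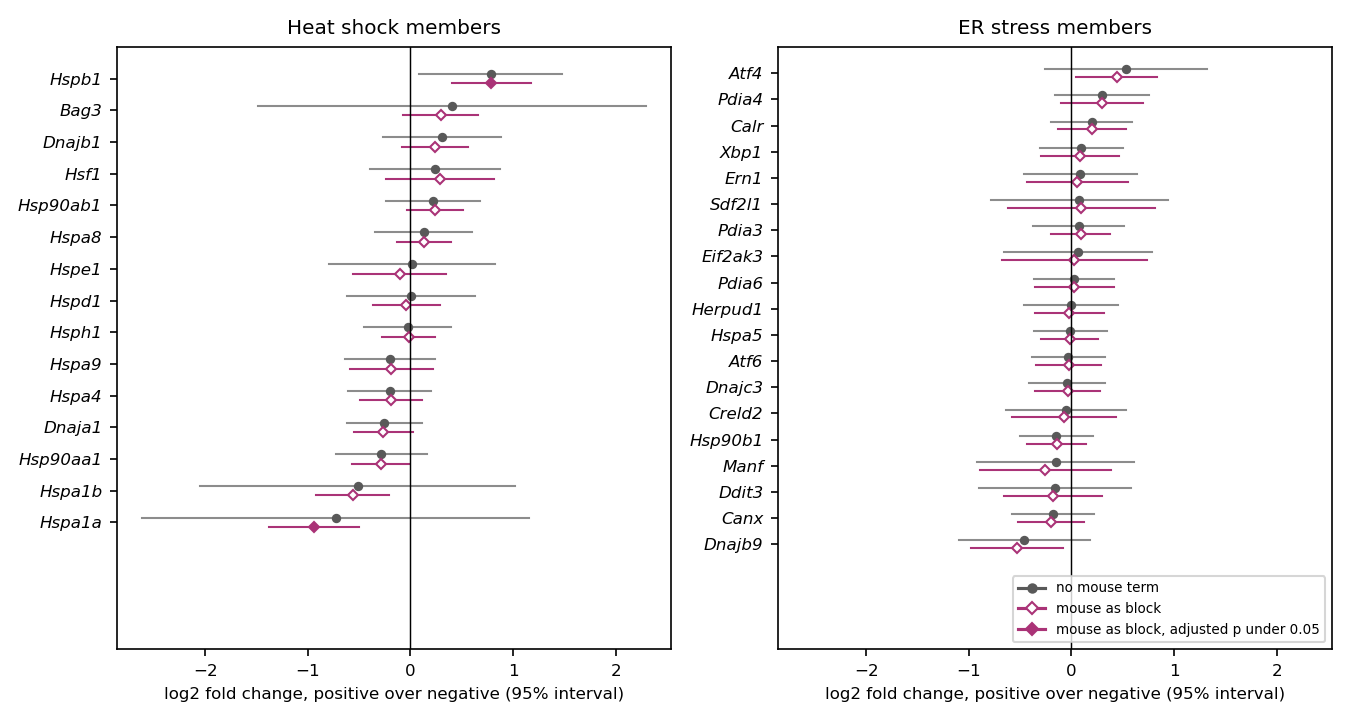
Log2 fold changes, positive over negative, with pointwise 95% intervals for the 34 members tested, without a mouse term (grey circles) and with the mouse as a block (diamonds, filled where adjusted p is under 0.05). The filled diamonds are those of Hspb1 and Hspa1a, and the grey intervals are widest for Hspa1a, Hspa1b and Bag3.

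Hspb1, a small heat shock protein that holds unfolded proteins, was the member that rose in the blocked model, by 1.72-fold. It had 68.5 CPM in negative against 120.1 CPM in positive cells of mouse 1, 44.8 against 67.7 in mouse 2 and 32.4 against 62.7 in mouse 3. The groups overlapped, since negative cells of mouse 1 exceeded positive cells of mouse 2 and of mouse 3, but the positive library was the higher one within each mouse. The blocked call (log2 fold change 0.79, SE 0.182; edgeR adjusted p = 0.0221) was absent without the block (log2 fold change 0.78, SE 0.316; edgeR adjusted p = 0.420) and in the blocked model without mouse 3 (0.70; adjusted p = 0.408). In the positive library of each mouse the club cell and multiciliated sums were also higher and the alveolar type 2 sum was lower. The part of these sums in the Hspb1 result was not tested.

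Hspa1a and Hspa1b encode the inducible HSP70 chaperones and are near-identical neighbours on chromosome 17. Reads that aligned to several places were tallied apart from the genes. Reads that align to both may thus be missing, so the level of each is uncertain. Hspa1a also overlaps the annotated gene Gm20481. Hspa1a had 70.2 CPM in negative against 38.7 CPM in positive cells of mouse 1, 49.9 against 16.9 in mouse 2 and 153 against 109 in mouse 3. For Hspa1b mouse 1 gave 79.2 CPM (negative) and 53.0 CPM (positive), mouse 2 55.3 and 34.5, mouse 3 176 and 129. Both genes were lower in the positive library of every mouse, while both libraries of mouse 3 stood above the other 4. Hspa1a fell in the blocked model and was 1.92-fold lower (log2 fold change -0.94, SE 0.207; edgeR adjusted p = 0.0164), and was not called without the block (log2 fold change -0.73, SE 0.762; edgeR adjusted p = 0.778). With 1 library or mouse left out, the unblocked log2 fold change ranged from -1.71 (without the positive library of mouse 3) to -0.13 (without its negative library). Hspa1b was not called with the block (log2 fold change -0.56, SE 0.168; edgeR adjusted p = 0.0851). The blocked Hspa1a call was lost without mouse 2 (-0.66; adjusted p = 0.0621), without mouse 3 (-1.20; 0.233) and with library size as the only scaling (-0.69; 0.0614).

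Immediate early genes, which digestion is also known to induce, summed higher in the positive library of each mouse. The sum of 12 of them was 12214 CPM in negative and 16289 CPM in positive cells of mouse 1, 6365 and 8782 in mouse 2, and 10486 and 13999 in mouse 3. Of the 12 genes 8 were higher in all 3 mice and 0 lower in all 3, against 19.8% and 18.8% of all genes. With the mouse as a block edgeR called 3 of the 12 as higher and 0 as lower, against 1.36% and 1.79% of all genes. Without the block it called 0. The alveolar type 2 sum was lower in the positive library of each mouse. The part of the immediate early genes and of the cell type sums in the Hspa1a result was not tested.

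The other cytosolic chaperones were not called by either model. Hsp90aa1, the stress-inducible HSP90, had the highest mean level per length of any member, 878 CPM per kb of exon over the 6 libraries. It had 4155 CPM in negative against 3878 CPM in positive cells of mouse 1, 4156 against 2776 in mouse 2 and 3059.6 against 2676 in mouse 3. It was lower in each mouse, with overlapping groups (log2 fold change -0.29, 95% interval -0.73 to 0.16; edgeR adjusted p = 0.641). The constitutive Hsp90ab1 followed per length, at 643 CPM per kb. For it mouse 1 gave 2132 CPM (negative) and 2484 CPM (positive), mouse 2 1889 and 1943, mouse 3 1321 and 1798, so it was higher in each mouse (log2 fold change 0.22, 95% interval -0.24 to 0.68; edgeR adjusted p = 0.740).

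Hsph1, a nucleotide exchange factor of HSP70, was alike in the fractions of each mouse and lowest in mouse 3. It had 2930.0 CPM in negative against 2851 CPM in positive cells of mouse 1, 2976 against 2808 in mouse 2 and 2068 against 2173 in mouse 3 (log2 fold change -0.03, 95% interval -0.45 to 0.40; edgeR adjusted p = 0.974). Hspa8, the constitutive HSP70, ordered the mice as 1, 2 and 3 from high to low in both fractions. For Hspa8 mouse 1 gave 1636 CPM (negative) and 1815 CPM (positive), mouse 2 1338 and 1336, mouse 3 1009.9 and 1200.0 (log2 fold change 0.13, 95% interval -0.35 to 0.60; edgeR adjusted p = 0.867). Hspa4, a further exchange factor, had a log2 fold change of -0.20 and was lower in 2 of 3 mice.

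The J-domain proteins deliver unfolded clients to HSP70. Dnajb1 had 801 CPM in negative against 1049.5 CPM in positive cells of mouse 1, 601 against 512 in mouse 2 and 738 against 1085 in mouse 3. It was thus higher in the positive cells of mice 1 and 3 and lower in those of mouse 2 (log2 fold change 0.31, 95% interval -0.26 to 0.88, edgeR adjusted p = 0.706). The blocked model without mouse 2 called Dnajb1 as higher (0.47, adjusted p = 0.0311), among 380 genes called in all. That fit leaves out the mouse that differed, so it cannot show a common direction. For Dnaja1 mouse 1 gave 1584 CPM (negative) and 1583 CPM (positive), mouse 2 1691 and 1161, mouse 3 1773 and 1491. It was the 1 member of 34 (2.94%) whose groups did not overlap, against 17.3% of all genes (8.29% higher and 9.02% lower), although the libraries of mouse 1 were nearly equal (log2 fold change -0.25, 95% interval -0.62 to 0.12; edgeR adjusted p = 0.622). Dnaja1 overlaps the annotated genes Gm6297, Mir207 and Smu1.

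Bag3, an HSP70 cofactor in selective autophagy, had the largest fold between animals of the members tested. It had 144 CPM in negative against 205 CPM in positive cells of mouse 1, 78.4 against 103 in mouse 2 and 36.9 against 35.4 in mouse 3, the same order of mice in both fractions. Its mean was 4.83-fold higher in mouse 1 than in mouse 3, whereas for Hspa1a mouse 3 exceeded mouse 2 by 3.92-fold. The regulator Hsf1 had no common direction: mouse 1 gave 79.5 CPM (negative) and 52.0 CPM (positive), mouse 2 40.3 and 79.4, mouse 3 40.8 and 57.6 (log2 fold change 0.24, 95% interval -0.40 to 0.87; edgeR adjusted p = 0.809). The mitochondrial chaperones Hspd1, Hspe1 and Hspa9 had log2 fold changes of -0.20 to 0.01 and were not called. Hspe1 and Hspd1 overlap each other, so their reads may be incompletely assigned.

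**Figure D2:**
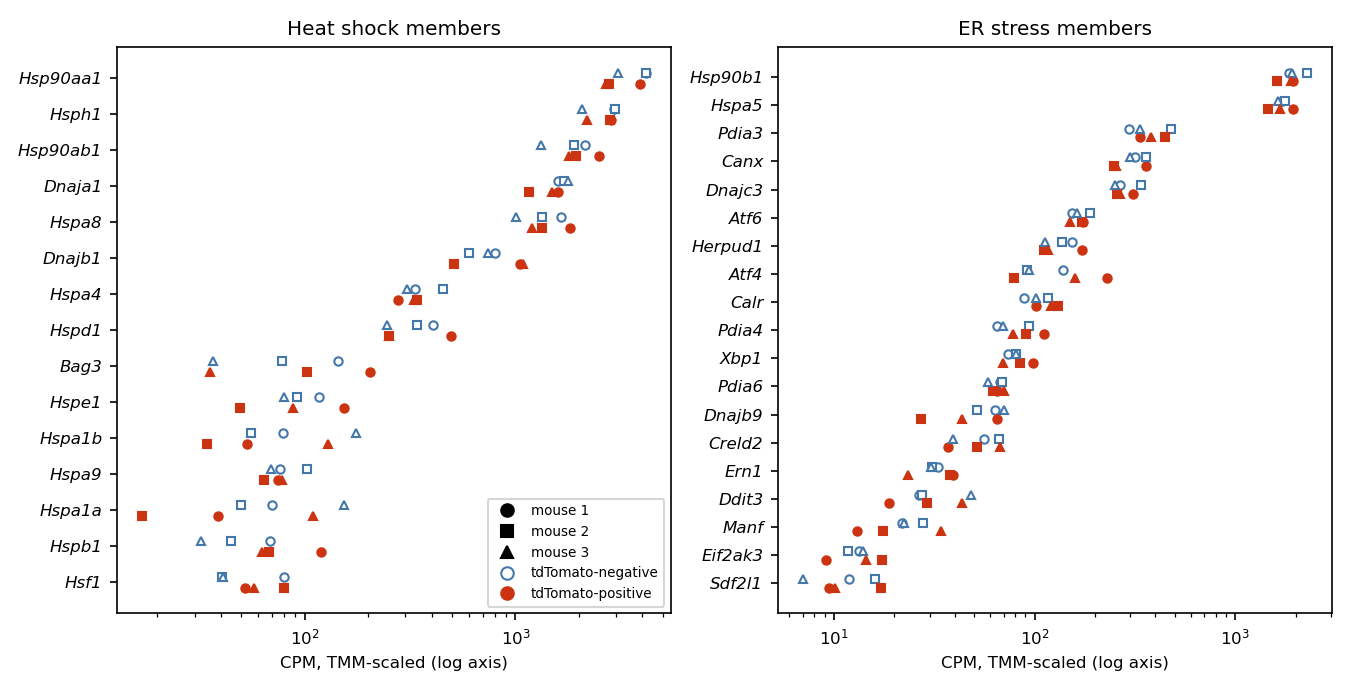
Level of each of the 34 members tested in the 6 libraries, in CPM on a log axis, with open symbols for negative and filled symbols for positive libraries and 1 shape per mouse. For Bag3, Hspa1a and Hspa1b the shapes separate more than open from filled symbols do.

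No ER member was called by either model. Of the 19 tested, 17 had a 95% interval within a 2-fold change in both directions (19 with the block), against 42.6% of all genes (48.1% with the block), many of which have low counts. Hspa5 encodes BiP, the ER HSP70 whose rise is the usual readout of the pathway. It had 1699 CPM in negative against 1937 CPM in positive cells of mouse 1, 1772 against 1447 in mouse 2 and 1622 against 1676 in mouse 3. The positive values lay on both sides of the negative ones (log2 fold change -0.01, 95% interval -0.37 to 0.35; edgeR adjusted p = 0.990). For Hsp90b1, the ER form of HSP90, mouse 1 gave 1854 CPM (negative) and 1938 CPM (positive), mouse 2 2271 and 1611, mouse 3 1905 and 1898. The positive value was lower in mouse 2 and near the negative one in the other mice (log2 fold change -0.15, 95% interval -0.51 to 0.21; edgeR adjusted p = 0.784). Per length Hsp90b1 and Hspa5 led the ER class with means of 474 and 400.1 CPM per kb, above Hsph1 (363) and Hspa8 (323).

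Calr and Canx are lectin chaperones that retain glycoproteins until they are folded. Calr was the 1 ER member higher in all 3 mice, by a small margin. It had 88.5 CPM in negative against 101 CPM in positive cells of mouse 1, 117 against 130.1 in mouse 2 and 102 against 121 in mouse 3 (log2 fold change 0.20, 95% interval -0.19 to 0.59; edgeR adjusted p = 0.725). Canx had a log2 fold change of -0.18. These are the ends of the range for the 7 genes with an ER stress element printed above, -0.18 to 0.20. The remaining chaperones and cofactors Dnajc3, Sdf2l1, Creld2 and Manf had -0.15 to 0.08.

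Dnajb9, a co-chaperone of BiP that restrains IRE1, had the lowest log2 fold change of the ER class. It had 63.8 CPM in negative against 64.9 CPM in positive cells of mouse 1, 51.5 against 27.1 in mouse 2 and 70.4 against 43.4 in mouse 3. Mouse 1 was level while positive cells of mice 2 and 3 had less (log2 fold change -0.46, 95% interval -1.10 to 0.18, edgeR adjusted p = 0.608). The blocked model without mouse 1 called Dnajb9 as lower (-0.83, adjusted p = 0.0253), among 633 genes called in all. That fit leaves out the mouse that differed, so it cannot show a common direction. Pdia4 is an isomerase of disulfide bonds, and mouse 1 gave 65.2 CPM (negative) and 112 CPM (positive), mouse 2 93.4 and 90.3, mouse 3 69.6 and 78.0. Its difference was largest in mouse 1 (log2 fold change 0.30, 95% interval -0.16 to 0.75; edgeR adjusted p = 0.640), and the isomerases Pdia3 and Pdia6 had 0.07 and 0.03.

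Among the transcription factors, Atf4 is the effector of PERK and of amino acid stress. It had 139 CPM in negative against 230.2 CPM in positive cells of mouse 1, 91.2 against 79.1 in mouse 2 and 93.4 against 159.6 in mouse 3. Positive cells had more in mice 1 and 3 and less in mouse 2, the split also seen for Dnajb1 (log2 fold change 0.53, 95% interval -0.25 to 1.32; edgeR adjusted p = 0.623). With TMM factors and all 3 mice the blocked model did not call it (0.44, edgeR adjusted p = 0.263). Without mouse 2, which went the other way, that model called it as higher (0.75, adjusted p = 0.00872), among 380 genes called in all. A fit that leaves out the differing mouse cannot show a common direction. With library size as the only scaling the blocked model also called it (0.69, adjusted p = 0.0373). There 823 genes were called and the median of all genes was 0.26. Xbp1 is activated when IRE1 splices its transcript, which counts per gene do not show. For Xbp1 mouse 1 gave 73.9 CPM (negative) and 98.3 CPM (positive), mouse 2 81.1 and 84.6, mouse 3 80.9 and 69.6, with no common direction (log2 fold change 0.10; edgeR adjusted p = 0.883). Ddit3 encodes CHOP, linked to prolonged ER stress. For Ddit3 mouse 1 gave 26.6 CPM (negative) and 18.9 CPM (positive), mouse 2 27.5 and 29.1, mouse 3 48.0 and 43.4, with both libraries of mouse 3 the highest (log2 fold change -0.16; edgeR adjusted p = 0.898). The sensors Atf6, Ern1 and Eif2ak3 had log2 fold changes of -0.03 to 0.09, and Herpud1, of ER-associated degradation, had -0.01.

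For most members the animals differed more than the fractions. The sum of squares of log2(CPM + 0.5) over the 6 libraries was divided into a share between the 3 mice, a share between the 2 fractions and a remainder. The mouse share was the larger in 30 of 34 members (88.2%), against 65.8% of all genes, and the exceptions were Dnaja1, Hspa9, Hsp90b1 and Pdia4. With 3 mice and 2 fractions the mouse share has more degrees of freedom. Median mouse and fraction shares were 72.2% and 13.0% for heat shock members, 42.5% and 3.48% for ER members, and 41.0% and 18.8% for all genes. These shares are descriptions, with no test.

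**Figure D3:**
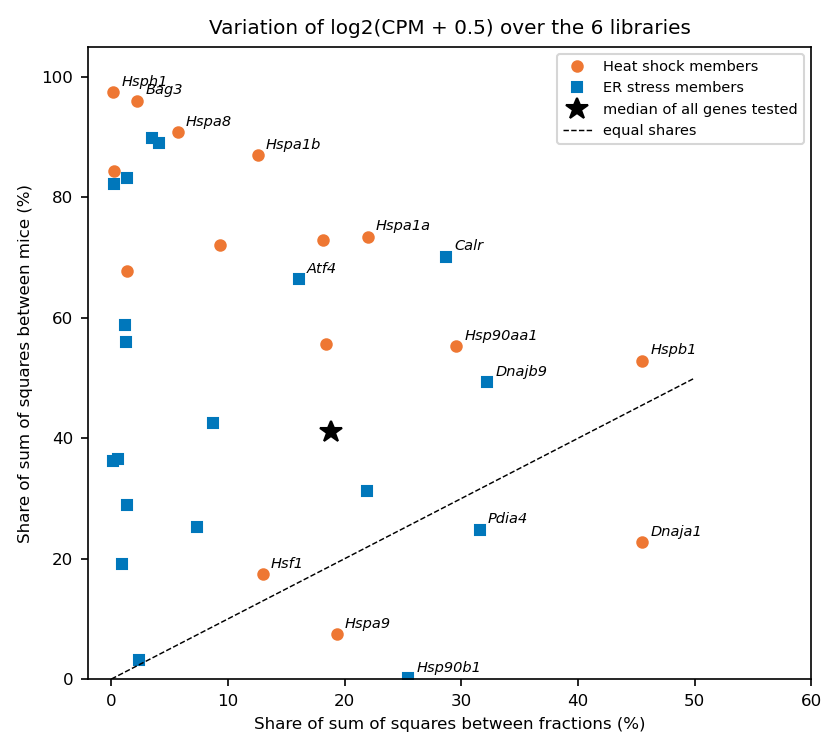
Share of each member's sum of squares of log2(CPM + 0.5) between the 3 mice (vertical) against the share between the 2 fractions (horizontal), in percent, with the median of all genes tested as a star. Of the 34 members 30 lie above the line of equal shares, with Hsph1 and Bag3 near the top.

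The classes were then set side by side within each mouse. The 11 cytosolic members summed to 13933 CPM in negative and 14355 CPM in positive cells of mouse 1, 13332 and 11101 in mouse 2, and 10672 and 11089 in mouse 3. The 20 ER members summed to 5398 CPM in negative and 6020.0 CPM in positive cells of mouse 1, 6224 and 4938 in mouse 2, and 5327 and 5476 in mouse 3. Positive over negative, the cytosolic sum was 1.03, 0.833 and 1.04 and the ER sum 1.12, 0.793 and 1.03 in mice 1, 2 and 3, so both were lower in positive cells of mouse 2 and slightly higher in those of mice 1 and 3. Abundant members weigh most in these sums. Means were 1913 and 1692 CPM for Hsp90b1 and Hspa5, and 3450 and 2634 CPM for Hsp90aa1 and Hsph1. The ratio of the cytosolic to the ER sum averaged 2.24 ± 0.302 for negative and 2.22 ± 0.182 for positive cells (SD, n = 3). Those SDs include the differences between mice. Within mice 1, 2 and 3 the positive ratio was 0.924, 1.05 and 1.01 times the negative one, with no common direction.

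The heat shock members had median log2 ratios of -0.00, -0.41 and 0.11 in mice 1, 2 and 3, the ER members 0.17, -0.15 and 0.06, and all genes -0.01, 0.02 and 0.02. In mouse 2, 10 of 34 members (29.4%) were higher in the positive library, against 51.3% of all genes, and in mice 1 and 3 it was 20 and 22 of 34. Hspb1, Hsp90ab1 and Calr were higher in 3 of 3 mice, and Hspa1a, Hspa1b, Hsp90aa1 and Dnaja1 were lower. These 7 are 20.6% of the members, while 38.6% of all genes kept 1 direction (19.8% higher and 18.8% lower). The negative library of mouse 2 had the highest share of mitochondrial ribosomal RNA, 39.1% of counts, against 24.6% and 28.6% in the other negative and 17.4% to 19.6% in the positive libraries. The part of that share in the mouse 2 values was not tested.

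**Figure D4:**
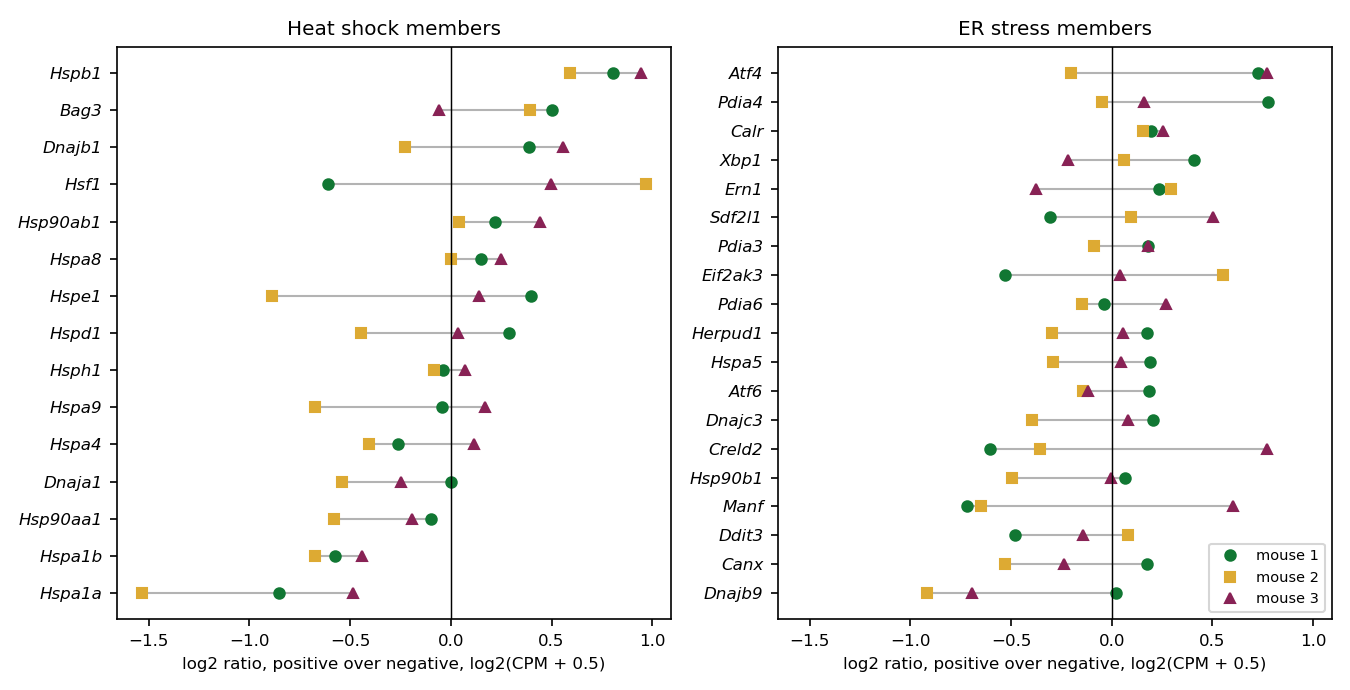
Log2 ratio of positive over negative within each mouse, from log2(CPM + 0.5), for the 34 members tested, with grey lines that span the 3 mice. Mouse 2 is above 0 for 10 of 34 members, while Hspb1 is above 0 and Hspa1a below 0 in all 3 mice.

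Further genes of each pathway were counted from 2 lists. Of 50 other heat shock and chaperone genes 45 were tested; 0 were called without the block and 3 with it, against 0.622% and 3.15% of all genes. At an unadjusted p under 0.05 without the block there were 6 (13.3%), against 10.7% of all genes. With the block there were 9 (20%), against 15.9%. Hspa2, an HSP70 known for its role in male germ cells, had 243 CPM in negative against 379.7 CPM in positive cells of mouse 1, 240.3 against 409.9 in mouse 2 and 179 against 302 in mouse 3. All positive values exceeded all negative ones, and it rose 1.65-fold in the blocked model (log2 fold change 0.72, SE 0.135; edgeR adjusted p = 0.00527; 0.152 without the block). Hsbp1 encodes a small protein that binds HSF1. For Hsbp1 mouse 1 gave 55.9 CPM (negative) and 129.7 CPM (positive), mouse 2 54.6 and 84.6, mouse 3 42.7 and 78.4. It too was higher without overlap and rose in the blocked model (log2 fold change 0.91, SE 0.183; edgeR adjusted p = 0.00883; 0.129 without the block, where DESeq2 called it at 0.0285).

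Hspa13, an HSP70-like protein of microsomes, had 18.6 CPM in negative against 9.29 CPM in positive cells of mouse 1, 17.9 against 6.33 in mouse 2 and 15.6 against 6.51 in mouse 3. It was lower without overlap and fell in the blocked model (log2 fold change -1.25, SE 0.331; edgeR adjusted p = 0.0493; 0.161 without the block, where DESeq2 called it at 0.0387). Without mouse 3 the blocked calls of Hspa2, Hsbp1 and Hspa13 were lost (adjusted p = 0.295, 0.295 and 0.426), at log2 fold changes of 0.71, 0.92 and -1.25. That of Hspa13 was also lost without mouse 2 (0.180) and with library size as the only scaling (0.102). The part of the cell type sums in the Hspa2, Hsbp1 and Hspa13 results was not tested. Of 50 other genes of the unfolded protein response and ER-associated degradation 44 were tested and 0 were called by either model, against 0.622% of all genes without the block and 3.15% with it. At an unadjusted p under 0.05 there were 2 (4.55%) in each model, against 10.7% and 15.9% of all genes. Their median log2 fold change was 0.24, with 30 of 44 (68.2%) above 0. For the other heat shock genes it was 0.11, with 25 of 45 (55.6%) above 0, and for all genes 0.03, with 52.7% above 0.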

How the data were processed

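Total RNA of 6 sorted libraries was amplified (Ovation kit) before TruSeq Nano library preparation, per the labels' protocols. The authors deposited raw read counts for each gene symbol. Tools listed in the submitters' processing notes are STAR 2.4.2a, cutadapt 1.7.1, DESeq2, FastQC and HTSeq, with mm10 and GRCm38.p4 as builds; the strand setting is not given in the sources used here. The 5 rows that name no gene were excluded; 41.0% to 49.4% of reads lay in no feature and 8.26% to 12.0% aligned to several places.

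Genes kept by filterByExpr (count minimum 10; 13175 genes) were tested with edgeR 4.0.16 in R 4.3.3 (quasi-likelihood, TMM factors, robust, two-sided, Benjamini-Hochberg adjustment over all genes kept, threshold 0.05). The labels tie 1 negative and 1 positive library to each mouse, so the mouse was also used as a replicate block. Deviations of same-mouse libraries from their group means correlated across genes at 0.268, 0.254 and 0.348. Alternatives were DESeq2 1.42.0, other scalings and filters, non-robust dispersion and leaving out each library or mouse; the blocked model with other scalings was chosen after seeing the data. Members and lists were chosen with earlier results of these data known. Values per library are given for members called by either model, the 4 with the smallest p and the 2 most abundant in each class, and 8 members chosen by name. Counts per gene do not show the activity of the proteins. Hspa8, Hsp90ab1 and Bag3 were added after their values were seen. From the other lists, called genes are named. Exon lengths and overlaps came from GENCODE M21 (GRCm38); Ddit3 matched 2 gene models and has no level per length. The test scripts were tested on simulated data.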

Additional observations from a re-analysis of the deposited data

How the results depend on the processing

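The results were recomputed under 22 alternatives. With the mouse as a replicate block, paired by the labels, 1 heat shock member was called higher and 1 lower, as also with DESeq2 and the block and with the block and RLE factors; the block with library size as the only scaling called 1 heat shock and 1 ER member higher. Omitting the filter called 1 heat shock member higher, Hspb1. In the blocked model without mouse 1, 1 heat shock member was called higher, 1 lower and 1 ER member lower; without mouse 2, 2 heat shock members and 1 ER member higher; without mouse 3, 0. The 82 calls over all genes became 415 with the block, 413 with no filter, 245 with DESeq2, 464 with DESeq2 and the block, 418 with the block and RLE factors, and 823 with the block and library size only. They ranged from 22 to 113 when a library or mouse was left out without the block, and were 633, 380 and 59 with the block and without mouse 1, 2 and 3.

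Library size only, without TMM factors, raised the median of all genes from 0.03 to 0.29 (log2). The ER median became 0.24, and 0.24 with the block. Near-zero values changed sign there: Hsph1 0.23 (0.24 with the block), Hsp90b1 0.12 (0.11), Hspa5 0.24 (0.24) and Ddit3 0.10 (0.0801). With no filter Hspa5 was 0.00365. Leaving out a library or mouse gave -0.18 to 0.0918 for Hsph1, -0.27 to 0.0304 for Hsp90b1, -0.14 to 0.12 for Hspa5, -1.24 to 0.10 for Hspa1b, -0.13 to 0.74 for Hsf1, -0.0911 to 0.24 for Xbp1 and -0.50 to 0.17 for Ddit3. With the block, omitting mouse 2 gave 0.0172 for Hsph1, 0.0304 for Hsp90b1, 0.12 for Hspa5 and -0.0641 for Hsf1, and omitting mouse 1 gave -0.0969 for Xbp1. The cause of the changes seen when the filter, a library or a mouse was left out was not tested. Trib3 was too low to test at this depth.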
